A study of Mus musculus with 6 samples.

Results

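Kinesins are motor proteins that use ATP to move along microtubules or to take them apart. One set of them builds the mitotic spindle, moves chromosomes and finishes cytokinesis, and its genes are transcribed mainly from the S to the M phase of the cell cycle. Another set carries vesicles, organelles, mRNA and membrane proteins through the cytoplasm, in dividing and in resting cells, and further kinesins work in cilia or set the length of microtubules. The gene symbols of the kinesin superfamily start with Kif, and every entry of the expression table whose symbol was Kif followed by a number and its letters was taken as a member.

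This rule found 37 kinesin genes among the 26082 different gene names of the table, each on a single row. By their known main roles, 12 of them were counted as mitotic, 13 as cargo kinesins and 12 as kinesins of cilia, microtubule regulation and other roles. A mean of at least 1 FPKM (fragments scaled to transcript length and library size) over the 6 samples was reached by 25 of the 37, namely 11 mitotic, 9 cargo and 5 other kinesins. Of the 12 members below that level, Kif2b, Kif6 and Kif12 were listed at 0 in all samples. The remaining 9 (Kif1a, Kif3c, Kif5a, Kif5c, Kif7, Kif21a, Kif26a, Kif26b and Kif27) had a mean of at most 0.296 FPKM, while the lowest mean among the tested members was 1.02 FPKM (Kif9). The lowly expressed members include the cargo motors best known from neurons, Kif1a, Kif5a and Kif5c.

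The samples were MLL-AF9 leukemia cells, a mouse model of acute myeloid leukemia in which c-Kit+ bone marrow progenitors are transduced with the MLL-AF9 fusion oncogene and the resulting leukemia is passed on by serial transplantation. All 6 samples came from the bone marrow of leukemic C57BL/6J mice that carried these transduced cells. One group of 3 received the vehicle by mouth (vehicle-treated, replicates 1 to 3), and the other group of 3 received 80 mg/kg of DS-5272, which keeps MDM2 from binding p53, in both cases 24 h before the cells were taken. The sources used here do not give the age of the mice. For other assays the study describes GFP+ leukemia cells collected from the marrow, and the gate used for these RNA samples is not given in the sources used here. They also do not say whether a sample was 1 mouse or a pool, so that p-values measure the spread between these samples.

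The table gives no read totals, but the steps between low FPKM values gave relative depths of 1, 0.808 and 0.885 in vehicle replicates 1 to 3 and of 0.746, 0.652 and 0.539 in DS-5272 replicates 1 to 3. Of 8 tested myeloid markers, Ptprc, Itgam, Cd33 and Csf1r were expressed in every sample and higher after DS-5272, Kit and Mpo, markers of immature myeloid cells, were lower, and Cebpa (log2 fold change −0.38) and Ly6c2 (−0.39) were not called (limma, Ptprc adjusted p = 0.0041, Mpo adjusted p = 0.0014). T cell and NK cell markers were all under 1 FPKM on average, with summed levels of at most 3.47 and 2.64 FPKM in any sample. Of 7 tested macrophage markers, 4 were higher after DS-5272 and none lower. For all these marker counts, 24.2% of all tested genes were called higher and 22.0% lower. The macrophage list summed to 45.9 to 93.1 FPKM in the vehicle samples and to 124 to 392 FPKM in the DS-5272 samples. Most of the vehicle sums came from Vcam1, which was not called, with 36.6, 64.1 and 82.8 FPKM against 143, 74.8 and 85.7 FPKM. The paper reports a rise of VCAM-1 in c-Kit+ cells, measured as protein by single-cell mass cytometry and not as RNA. Every other marker of this list was at or below 2.95 FPKM in the vehicle samples. Siglec1, C1qb and C1qc had the largest rises (log2 fold changes 3.38, 2.99 and 2.90). Of 3 tested erythroid markers, the globins Hba-a1 and Hba-a2 were called higher (3.31 and 3.30). The call was lost for both without vehicle replicate 2, and for Hba-a1 also without vehicle replicate 3. Hba-a2 passed the 1 FPKM limit only through the DS-5272 samples. The erythroid list summed to 2.52 to 4.68 against 12.7 to 146 FPKM. Both sums were highest in DS-5272 replicate 1. The B cell list summed to 3.39 to 5.02 FPKM over the 6 samples, and the megakaryocyte list and the stroma and endothelium list stayed at or below 6.95 and 6.596 FPKM.

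The comparison asked how the expression of mitotic and of cargo kinesins differed between vehicle- and DS-5272-treated MLL-AF9 cells. Every tested mitotic kinesin was lower after DS-5272, among them Kif11, Kif23, Kif22 and Kif20a, the most abundant of the mitotic motors. The cargo kinesins gave a mixed picture, with higher Kif1c, Kif13b, Kif3b and Kif1b, lower Kif17 and no call for the other 4, among them the abundant Kif5b. The test was limma on log2(FPKM + 1), with p-values adjusted by the Benjamini-Hochberg method over the 11130 genes averaging 1 FPKM or more and a threshold of 0.05. Over all these genes, 24.2% were called higher and 22.0% lower after DS-5272, and the median log2 fold change was 0.04. This split depended on scaling, with 2697 genes higher and 2451 lower as deposited, 2231 and 3182 with a common upper quartile and 1773 and 3611 with a common total, which moved the median of all genes to −0.08 and −0.20. Against this background, 7 of the 25 tested kinesins were called higher and 13 lower. Of the 23 with a mean of at least 1 FPKM in both groups, 6 were called higher and 12 lower, which leaves out Kif9 and Kif24. In bulk RNA, fewer cells in division and less mRNA per cell cannot be told apart. An exact permutation test of 3 against 3 samples cannot go below p = 0.1 for a single gene.

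Promoter sequences were examined because the mitotic members moved together. Many genes of the late cell cycle carry the cell cycle genes homology region (CHR), a short element read by the DREAM and B-MYB complexes, often next to CCAAT boxes. Windows came from the RefSeq promoter table for mouse (assembly GRCm38.p6) and span 250 bases before to 50 bases after an annotated start. Of the 25 tested kinesins, 20 had a window in these counts. Kif20a, Kif5b, Kif13b, Kif19a and Kif21b were without one. The letters TTTGAA were searched on both strands, so that TTCAAA also counts. Of the 10 mitotic kinesins with a window, 9 held this motif, against 0 of 7 cargo kinesins, 0 of 3 other kinesins and 17.9% of all 32851 windows. Within 60 bases before to 30 bases after the start, 7 of the 10 mitotic kinesins held it, against 4.62% of all windows. The stretches of these 7 genes are shown in full because they place the motif close to the start, with TTTGAA or TTCAAA in capitals and each stretch running from 60 bases before to 30 bases after the RefSeq start, 5′ to 3′ on the strand of the gene:
Kif11 (chr19:37376322-37376411, plus strand): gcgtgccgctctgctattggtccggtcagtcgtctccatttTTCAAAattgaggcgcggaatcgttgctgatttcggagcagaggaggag
Kif15 (chr9:122951021-122951110, plus strand): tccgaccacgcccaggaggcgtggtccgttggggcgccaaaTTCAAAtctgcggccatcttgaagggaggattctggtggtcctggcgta
Kif22 (chr7:127042391-127042480, minus strand): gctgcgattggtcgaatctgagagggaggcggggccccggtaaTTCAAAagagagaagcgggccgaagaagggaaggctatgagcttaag
Kif18b (chr11:102925095-102925184, minus strand): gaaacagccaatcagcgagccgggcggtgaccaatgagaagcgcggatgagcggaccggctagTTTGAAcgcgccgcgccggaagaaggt
Kif23 (chr9:61946770-61946859, minus strand): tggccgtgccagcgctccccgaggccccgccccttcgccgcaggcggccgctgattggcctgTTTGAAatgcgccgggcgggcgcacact
Kif20b (chr19:34922298-34922387, plus strand): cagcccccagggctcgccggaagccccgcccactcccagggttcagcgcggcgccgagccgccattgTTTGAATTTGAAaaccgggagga
Kif4 (chrX:100626005-100626094, plus strand): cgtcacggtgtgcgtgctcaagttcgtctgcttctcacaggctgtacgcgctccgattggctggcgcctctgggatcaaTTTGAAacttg

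In Kif11, Kif15 and Kif22 the motif lay on the opposite strand, with its first base 19, 19 and 17 bases before the start. In Kif18b, Kif23, Kif20b and Kif4 it lay on the strand of the gene, 4, 3, 8 and 20 bases after the start, and Kif20b carried a directly repeated copy.  Kif14 and Kif2c held the motif farther upstream, with the first base 228 and 103 bases before the start. Kif15 and Kif22 each held a further upstream copy. Positions depend on the annotation, since the RefSeq start lies 328, 1505 and 3867 bases downstream of the GENCODE gene start for Kif4, Kif14 and Kif2c, and 11816 bases for the cargo kinesin Kif17. Among genes whose GENCODE start lies in the window, 6 of 7 mitotic and 0 of 6 cargo kinesins held TTTGAA.

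For contrast, the same stretch is shown for Kif18a, the mitotic kinesin whose window lacked TTTGAA, and for Kif1c and Kif3b, of the cargo kinesins called higher those with the largest change and with the smallest standard error:
Kif18a (chr2:109280678-109280767, plus strand): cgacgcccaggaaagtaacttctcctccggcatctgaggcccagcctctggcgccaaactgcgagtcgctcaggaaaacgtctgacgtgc
Kif1c (chr11:70700488-70700577, plus strand): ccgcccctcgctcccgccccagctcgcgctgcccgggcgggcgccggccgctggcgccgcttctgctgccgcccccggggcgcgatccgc
Kif3b (chr2:153291356-153291445, plus strand): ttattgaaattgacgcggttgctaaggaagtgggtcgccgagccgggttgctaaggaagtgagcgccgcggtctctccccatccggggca

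Kif18a instead held a match to an E2F motif, searched as TTTGGCGC or TTTCCCGC on both strands and present here as the reverse complement gcgccaaa. Among the mitotic kinesins, E2F matches were found in Kif15 and Kif18a (2 of 10), against 1.56% of all windows, and in Kif15 the match directly precedes the capitals. A CCAAT box, searched as CCAAT on both strands, was found in 6 of 10 mitotic and 3 of 7 cargo kinesins and in 37.4% of all windows. Both CHR and CCAAT letters were found in 6 of 10 mitotic kinesins and in 6.95% of all windows. Base composition differs between the classes. The mitotic windows had 43.7% (Kif14) to 65.0% GC and the cargo windows 59.7% to 86.7%, and only 2 cargo genes had a window in the mitotic range. Among the 21050 windows of the whole table in that range, 16.8% held TTTGAA. Where the GENCODE start lies in the window, which leaves out Kif4, Kif14 and Kif2c, the mitotic range was 53.0% to 65.0% GC. The share of all windows with TTTGAA in this narrower range was not computed. Such matches describe letters in a window and not binding of a factor.

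The 11 tested mitotic kinesins were all called lower, beside 22.0% of all tested genes. In each of the 11, the 3 DS-5272 samples lay below the 3 vehicle samples, which was the case for 29.7% of all tested genes. Their log2 fold changes ran from −2.55 (Kif22) to −1.47 (Kif18a) with a median of −2.08, their standard errors from 0.30 to 0.53 and their adjusted p from 0.0096 to 0.015. In mean FPKM, vehicle samples were 2.71-fold (Kif23) to 5.43-fold (Kif22) higher than DS-5272 samples, with a median of 4.55-fold. With a common total the median log2 fold change was −2.50. Each of the 11 was also called lower when any 1 of the 6 samples was left out, but the limma adjusted p then reached up to 0.049 (Kif14). The plot of mitotic kinesin values shows this gene by gene.

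**Figure D1:**
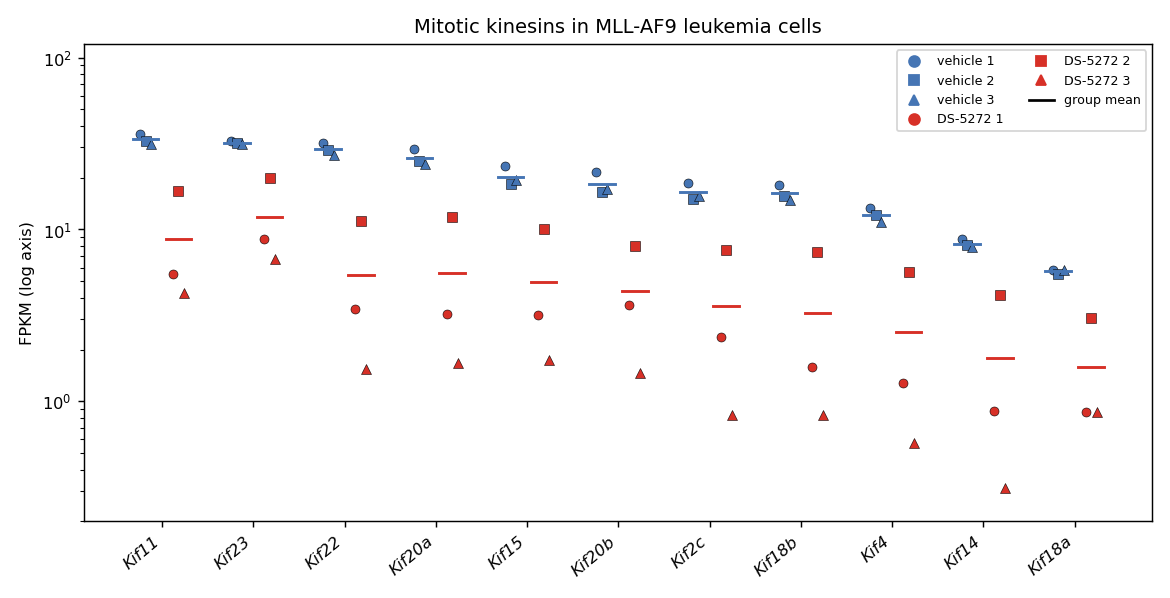
FPKM (vertical axis, log scale) of the 11 tested mitotic kinesins in each sample, with 3 vehicle samples in blue, 3 DS-5272 samples in red, a marker shape for each replicate number and a bar for each group mean. All red points lie below the blue points of the same gene, and DS-5272 replicate 2 (red squares) is the highest of the treated samples for all 11 genes.

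Kif11 (Eg5), the motor that slides antiparallel microtubules to set up a bipolar spindle, had the highest vehicle mean of the class, with 36.1, 32.6 and 31.5 FPKM in the vehicle samples and 5.49, 16.7 and 4.25 FPKM in the DS-5272 samples. Its log2 fold change was −2.02 (SE 0.43, adjusted p = 0.010, limma). Kif15, a second motor for spindle bipolarity, had 23.3, 18.3 and 19.3 FPKM in the vehicle samples and 3.18, 9.99 and 1.73 FPKM after DS-5272. The groups of both genes were apart, and DS-5272 replicate 2 kept the highest treated level, 50.1% of the vehicle mean for Kif11 and 49.2% for Kif15.

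Of the chromosome-bound motors, Kif22 (Kid), which pushes chromosome arms outward, had the largest fall, from 32.0, 29.0 and 27.0 FPKM to 3.46, 11.2 and 1.53 FPKM (log2 fold change −2.55, SE 0.52, limma adjusted p = 0.0096). Kif4, a chromokinesin that also limits the spindle midzone together with Prc1, had 13.4, 12.1 and 11.1 FPKM in the vehicle samples and 1.28, 5.69 and 0.573 FPKM in the treated samples. Both genes were lowest in DS-5272 replicate 3, at 5.23% (Kif22) and 4.70% (Kif4) of the vehicle mean.

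Motors of the spindle midzone and of cytokinesis fell as well. Kif20a (Mklp2), which brings the chromosomal passenger complex to the midzone, went from 29.3, 24.9 and 24.0 FPKM to 3.20, 11.8 and 1.66 FPKM. Kif20b, a related motor of late cytokinesis, went from 21.5, 16.5 and 17.3 to 3.66, 8.005 and 1.46 FPKM. Kif14, which binds Prc1 and citron kinase at the midbody, was lower in level, at 8.79, 8.09 and 7.87 FPKM in the vehicle samples and 0.879, 4.17 and 0.315 FPKM after DS-5272. Kif14 had the least left in any treated sample, 3.82% of the vehicle mean in DS-5272 replicate 3.

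Kif23 (Mklp1), which pairs with Racgap1 in the centralspindlin complex, was the mitotic kinesin with the highest share left. Its vehicle values were 32.7, 31.8 and 31.6 FPKM and its treated values 8.83, 19.9 and 6.73 FPKM, so that 27.6%, 62.3% and 21.0% of the vehicle mean were left in DS-5272 replicates 1, 2 and 3, in each of them the highest share among the 11. Its log2 fold change was −1.50 (95% interval −2.32 to −0.68), an interval that overlaps that of Kif22 (−3.79 to −1.31). The ratio of Kif23 to Racgap1 FPKM was 0.66 ± 0.03 (SD, n = 3) in the vehicle samples and 1.36 ± 0.46 (SD, n = 3) in the DS-5272 samples, without overlap between the groups.

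The motors that shorten microtubules at their ends behaved in the same direction. Kif2c (MCAK), the kinesin-13 that corrects wrong attachments at centromeres, had 18.5, 15.1 and 15.7 FPKM against 2.37, 7.63 and 0.828 FPKM. Kif18b, which with Kif2c shortens astral microtubules, had 18.2, 15.7 and 14.8 FPKM against 1.58, 7.38 and 0.829 FPKM. Kif18a, the kinesin-8 that aligns chromosomes at the metaphase plate, was the least abundant in vehicle samples, at 5.77, 5.52 and 5.80 FPKM, and had 0.867, 3.04 and 0.863 FPKM after DS-5272. Its log2 fold change of −1.47 (SE 0.30) was the smallest of the class, although its mean was 3.58-fold higher in vehicle samples, because adding 1 FPKM before the log shrinks the change of low genes. With 0.1 FPKM added instead, the fall of the class had a median of −2.66, and the smallest was that of Kif23 (−1.59).

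The treated samples were far more spread than the vehicle samples. The coefficient of variation of the 11 mitotic kinesins was 1.76% to 14.4% in the vehicle group and 59.99% to 117% in the DS-5272 group, and the order of the treated samples was the same for every gene, with replicate 2 highest and replicate 3 lowest, although replicates 1 and 3 were nearly level for Kif18a. A median of 14.4%, 46.7% and 6.37% of the vehicle mean was left in DS-5272 replicates 1, 2 and 3. Replicate 3 was also the library with the lowest relative depth and the largest FPKM sum over all genes (661184 against 445316 to 579884 in the other samples), and the part of this in the order was not tested. Macrophage and erythroid marker sums had another order, highest in DS-5272 replicate 1. The 14 called partners of mitotic kinesins described below had their highest treated value in replicate 2, like the motors themselves.

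The 9 tested cargo kinesins had a median log2 fold change of 0.16, with 4 called higher, 1 called lower and 4 not called. Of all tested genes, 24.2% were called higher and 22.0% lower. The DS-5272 samples lay above all vehicle samples for 4 of the 9 and below for 2, against 32.1% and 29.7% of all tested genes. The 4 higher genes (Kif1c, Kif13b, Kif3b and Kif1b) were called with any 1 sample left out.

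**Figure D2:**
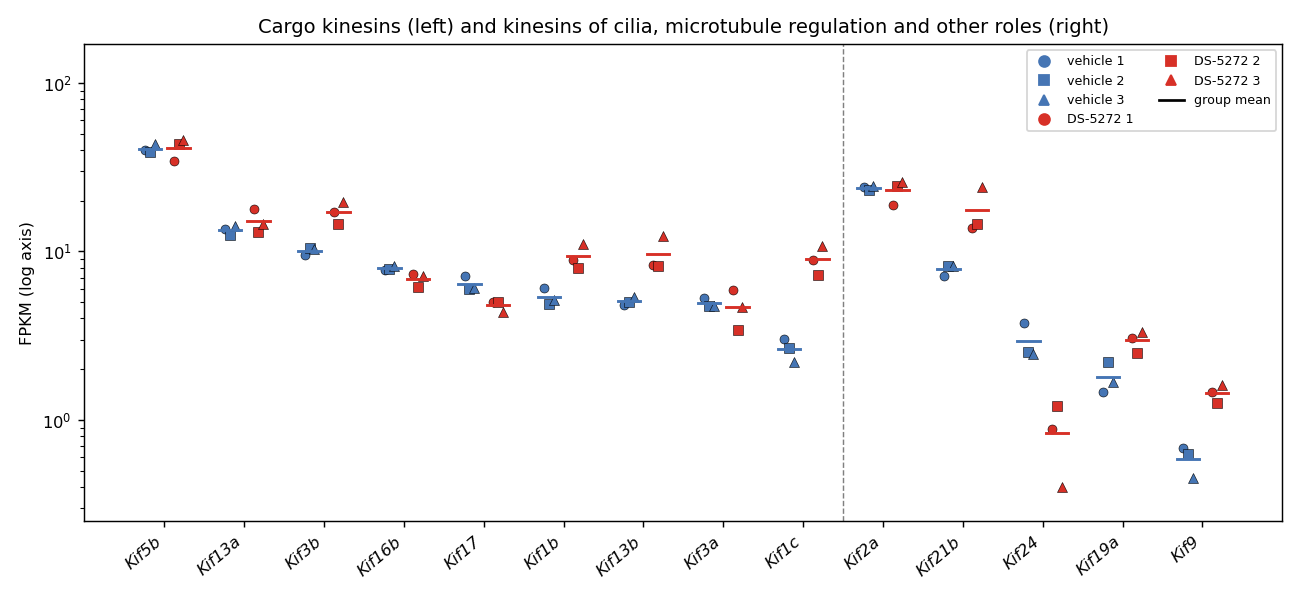
FPKM (vertical axis, log scale) of the 9 tested cargo kinesins (left of the dashed line) and the 5 tested kinesins of cilia, microtubule regulation and other roles (right), with colours, shapes and bars as for the mitotic kinesins. Kif3b, Kif1b, Kif13b, Kif1c, Kif21b, Kif19a and Kif9 have all red points above the blue ones, while Kif5b, Kif13a, Kif3a and Kif2a overlap.

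Kif1c, a kinesin-3 that carries dense core and integrin-containing vesicles and has a role in podosomes of macrophages, had the largest rise of the 25 tested Kif genes. Its values were 3.02, 2.68 and 2.22 FPKM in the vehicle samples and 8.92, 7.21 and 10.8 FPKM after DS-5272, a 3.40-fold higher mean (log2 fold change 1.45, SE 0.17, limma adjusted p = 0.0022). Macrophage marker sums were higher in the same samples, with the highest value in DS-5272 replicate 1, and Kif1c was highest in replicate 3. With DS-5272 replicate 1 left out, Kif1c had a log2 fold change of 1.44, and 4 of 6 tested macrophage markers were still called higher. The part of macrophages in the rise of Kif1c was not tested.

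Kif1b, the closely related carrier of mitochondria and synaptic vesicle precursors, had 6.03, 4.88 and 5.13 FPKM in the vehicle samples and 8.94, 7.99 and 11.1 FPKM in the treated samples. The log2 fold change of Kif1b was 0.70 (SE 0.15, limma adjusted p = 0.010), and with all samples scaled to a common total it was 0.49 (adjusted p = 0.055). The ratio of Kif1c to Kif1b FPKM was 0.49 ± 0.06 and 0.96 ± 0.05 (SD, n = 3 each) in vehicle and DS-5272 samples. Both kinesin-3 genes were thus higher, and the ratios of the groups did not overlap.

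Kif13b (GAKIN), a kinesin-3 that binds phosphoinositide adaptors and the polarity protein DLG1, had 4.79, 5.02 and 5.38 FPKM against 8.28, 8.18 and 12.4 FPKM (log2 fold change 0.79, SE 0.17, limma adjusted p = 0.011). Its relative Kif13a, which moves mannose 6-phosphate receptors and recycling endosomes, had 13.6, 12.5 and 14.1 FPKM in the vehicle samples and 17.8, 13.1 and 14.6 FPKM after DS-5272. The groups overlapped for Kif13a, and the 95% interval of its log2 fold change was −0.15 to 0.47. A further kinesin-3, the early endosome motor Kif16b, had 7.73, 7.86 and 8.18 FPKM against 7.38, 6.15 and 7.10 FPKM. All 3 treated values of Kif16b were below the vehicle values, but the interval was −0.43 to 0.07 and the gene was not called (adjusted p = 0.19, limma).

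Kif5b, the ubiquitous heavy chain of conventional kinesin (kinesin-1), was the most abundant kinesin in every sample. Its values were 39.9, 39.0 and 43.3 FPKM in the vehicle samples and 34.5, 43.2 and 45.7 FPKM after DS-5272. The groups overlapped, and the log2 fold change was 0.00 with a 95% interval of −0.30 to 0.31. The sign of this value depended on the scaling of the samples, down to −0.26 with a common total. The ratio of Kif5b to Kif11 FPKM was 1.11, 1.20 and 1.37 in the vehicle samples and 6.28, 2.58 and 10.8 in the DS-5272 samples.

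The kinesin-2 motors gave 3 different pictures. Kif3a and Kif3b form a heterodimer that, with the adaptor Kifap3, drives intraflagellar and vesicle transport. Kif3b had 9.51, 10.4 and 10.3 FPKM in the vehicle samples and 17.2, 14.6 and 19.5 FPKM after DS-5272 (log2 fold change 0.70, SE 0.12, limma adjusted p = 0.0065). Kif3a had 5.31, 4.72 and 4.73 FPKM against 5.92, 3.40 and 4.70 FPKM, with overlapping groups and a 95% interval of −0.51 to 0.34. Kifap3 fell from 4.22, 4.12 and 4.55 FPKM to 2.96, 2.23 and 2.90 FPKM (log2 fold change −0.52, SE 0.13, limma adjusted p = 0.016), a call that was lost without vehicle replicate 2 or 3. The ratio of Kif3b to Kif3a was 2.06 ± 0.23 in vehicle and 3.79 ± 0.77 in DS-5272 samples, and that of Kif3b to Kifap3 was 2.35 ± 0.16 and 6.37 ± 0.50 (SD, n = 3 each). These ratios are of mRNA per length and not of subunits in a complex.

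**Figure D3:**
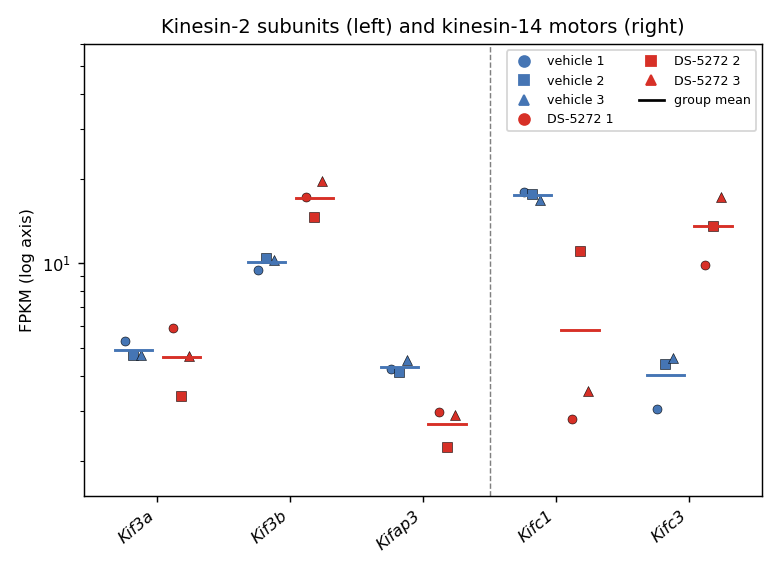
FPKM (vertical axis, log scale) of the kinesin-2 genes Kif3a, Kif3b and their adaptor Kifap3 (left) and of the kinesin-14 genes Kifc1 and Kifc3 (right) in each sample, with bars for group means. Kif3b and Kifc3 are higher and Kifap3 and Kifc1 lower in all 3 DS-5272 samples, while Kif3a overlaps.

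Kif17, the homodimeric kinesin-2, was the only cargo kinesin called lower, with 7.11, 6.01 and 6.11 FPKM against 5.02, 5.02 and 4.38 FPKM (log2 fold change −0.35, SE 0.11, limma adjusted p = 0.043). This call was lost with any 1 of the 6 samples left out (adjusted p 0.055 to 0.13). An exon of Kif17 overlaps one of Sh2d5 on the same strand in the GENCODE annotation, so reads of the 2 genes may be shared.

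Among the 5 other tested kinesins, 3 were called higher, 1 lower and 1 was not called, beside 24.2% and 22.0% of all tested genes called higher and lower. But 1 of the 3 (Kif9) and the lower one (Kif24) passed the 1 FPKM limit only through the group in which they were high. These counts therefore support nothing further. Kif21b, a kinesin-4 that slows microtubule growth and is expressed in neurons and lymphoid cells, had 7.10, 8.24 and 8.16 FPKM in the vehicle samples and 13.8, 14.6 and 24.1 FPKM after DS-5272 (log2 fold change 1.03, SE 0.21, limma adjusted p = 0.0097). Kif24, a kinesin-13 of centrioles that restrains the formation of cilia, fell from 3.78, 2.53 and 2.45 FPKM to 0.888, 1.21 and 0.402 FPKM (log2 fold change −1.11, SE 0.22, limma adjusted p = 0.0089). Kif24 showed the order of the mitotic kinesins, highest in DS-5272 replicate 2 and lowest in replicate 3. Both calls held with any 1 sample left out. In the GENCODE annotation of GRCm38, Kif21b (chr1:136131389-136177998) and the mitotic Kif14 (chr1:136466343-136531511) lie near each other on the plus strand, and the former was higher and the latter lower after DS-5272.

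Kif2a, the kinesin-13 of spindle poles and interphase microtubules, was the most abundant of these 5, with 24.0, 23.2 and 24.4 FPKM in the vehicle samples and 18.7, 24.5 and 25.9 FPKM after DS-5272. The 95% interval of its log2 fold change was −0.38 to 0.25. The ratio of Kif2a to its mitotic relative Kif2c was 1.30, 1.54 and 1.56 in the vehicle samples and 7.92, 3.20 and 31.2 in the DS-5272 samples. Kif9 and Kif19a, both motors of motile cilia, were close to the lower limit of expression. Kif9 had 0.678, 0.626 and 0.452 FPKM against 1.46, 1.26 and 1.62 FPKM and thus passed the 1 FPKM limit only through the DS-5272 samples, where a difference was needed for it to be tested at all (log2 fold change 0.63, SE 0.14, limma adjusted p = 0.013). Its call was lost without vehicle replicate 3, and the gene fell under the limit without any 1 of the DS-5272 samples. Kif19a had 1.47, 2.22 and 1.68 FPKM against 3.08, 2.51 and 3.34 FPKM (log2 fold change 0.51, SE 0.16, limma adjusted p = 0.034), and this call was lost without vehicle replicate 1 or 3 or without DS-5272 replicate 1 or 3.

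**Figure D4:**
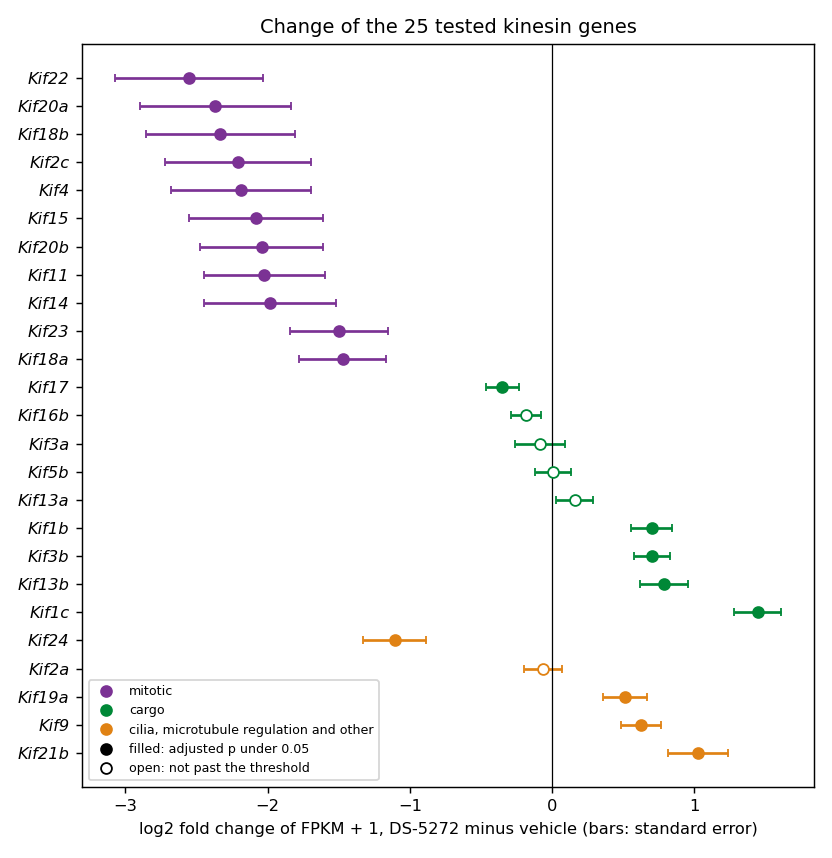
Log2 fold change of FPKM + 1, DS-5272 minus vehicle (horizontal axis), of the 25 tested kinesins, with bars for the standard error, colours for the class and filled points for an adjusted p under 0.05. The 11 mitotic kinesins lie between −2.55 and −1.47, the 9 cargo kinesins between −0.35 and 1.45 and the 5 others between −1.11 and 1.03.

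Between the classes, the log2 fold changes of the mitotic kinesins (−2.55 to −1.47) and of the cargo kinesins (−0.35 to 1.45) did not overlap. This rests on the class membership, since Kif2a, a motor of spindle poles counted here among the other kinesins, had −0.06. The highest upper bound of a 95% interval among the mitotic genes was −0.68 (Kif23), and the lowest lower bound among the cargo genes was −0.62 (Kif17). Each interval rests on a spread shared by both groups, although the mitotic genes varied far more among the DS-5272 than among the vehicle samples. Intervals with a separate spread for each group were not computed and could be wider, so the gap between these bounds is uncertain. No test of one class against the other was made, since the members of a class share their samples and are not replicates.

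In summed FPKM, the mitotic kinesins gave 240, 210 and 206 in the vehicle samples and 34.8, 106 and 20.8 in the DS-5272 samples. The cargo kinesins summed to 97.5, 93.5 and 99.9 FPKM against 115, 109 and 131 FPKM. The other kinesins summed to 37.9, 37.4 and 37.7 FPKM against 38.8, 44.4 and 55.7 FPKM. The mitotic share of all kinesin FPKM was accordingly 63.9%, 61.6% and 59.9% in the vehicle samples and 18.4%, 40.7% and 10.02% in the DS-5272 samples. All kinesins together summed to 353 ± 19.0 FPKM in vehicle and 218 ± 36.7 FPKM in DS-5272 samples (SD, n = 3 each), and cargo kinesins made the largest class in each treated sample.

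**Figure D5:**
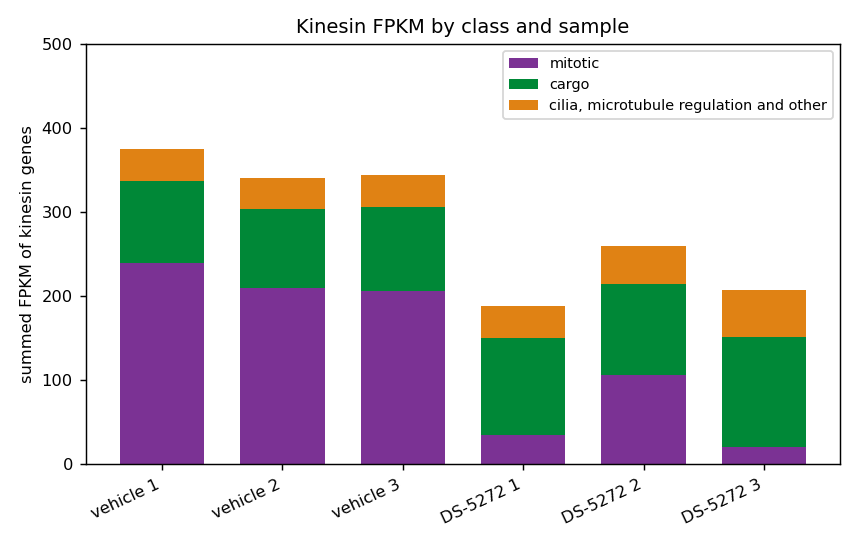
Summed FPKM (vertical axis) of the mitotic, cargo and other kinesins in each of the 6 samples, stacked by class. The mitotic part is 206 to 240 FPKM in the vehicle samples and 20.8 to 106 FPKM in the DS-5272 samples, while the cargo part is 93.5 to 99.9 and 109 to 131 FPKM.

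Kinesin motors whose symbols do not follow the Kif number pattern were looked at separately. Cenpe, the kinetochore kinesin that captures microtubules, had 18.9, 15.7 and 16.9 FPKM against 1.93, 7.68 and 0.847 FPKM (log2 fold change −2.33, SE 0.52, limma adjusted p = 0.012). Kifc1 (HSET), a minus end directed kinesin-14 that focuses spindle poles, fell from 17.9, 17.6 and 16.8 FPKM to 2.81, 11.1 and 3.52 FPKM (log2 fold change −1.64, SE 0.41, limma adjusted p = 0.018), and this call was lost without vehicle replicate 1, vehicle replicate 2 or DS-5272 replicate 3. Kifc3, a kinesin-14 of apical transport and adherens junctions, rose from 3.03, 4.41 and 4.61 FPKM to 9.90, 13.6 and 17.2 FPKM (log2 fold change 1.52, SE 0.22, limma adjusted p = 0.0039). The ratio of Kifc3 to Kifc1 was 0.23 ± 0.05 in vehicle and 3.21 ± 1.85 in DS-5272 samples (SD, n = 3 each).

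Of 15 tested partners of mitotic kinesins, 14 were called lower and none higher, beside 22.0% and 24.2% of all tested genes. The median log2 fold change over the list was −2.07. Birc5 and Aurkb, the survivin subunit and the kinase of the chromosomal passenger complex, had the largest falls (log2 fold changes −2.85 and −2.44, limma adjusted p = 0.019 and 0.0089). The call of Birc5 was lost without any 1 of the vehicle samples, and with 1 sample left out 11 to 14 of the list were called lower. Racgap1, the partner of Kif23, went from 47.0, 50.4 and 48.1 FPKM to 6.42, 22.1 and 3.71 FPKM. Mapre1 (EB1), a plus end binding protein that also serves interphase microtubules, was the member without a call, at 86.5, 86.2 and 90.8 FPKM against 88.5, 104 and 101 FPKM.

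Of 14 tested light chains and cargo adaptors, 6 were called higher and 1 lower, with a median log2 fold change of 0.32, beside 24.2% and 22.0% of all tested genes. With a common total, 1 was called higher (Arl8a) and 2 lower, and with 1 sample left out 2 to 5 were called higher and 0 to 1 lower. Arl8a, a small GTPase that links lysosomes to kinesins, had 27.7, 33.7 and 31.9 FPKM against 55.1, 52.8 and 70.8 FPKM (log2 fold change 0.91, limma adjusted p = 0.0047). Plekhm2 (SKIP), which joins Arl8 to kinesin-1, had a log2 fold change of 0.52 (limma adjusted p = 0.0095), a call lost with a common total. The kinesin light chain Klc4 rose from 18.02, 17.98 and 20.7 to 22.2, 30.02 and 37.8 FPKM, with a limma adjusted p = 0.038. The call of Klc4 was lost with no filter, with a common total and without any 1 vehicle sample or DS-5272 replicate 2 or 3 (adjusted p up to 0.11). The lower member was Kifap3, described with its motors.

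The opposing motor and the tracks were compared by lists of the same kind. Of 22 tested genes of cytoplasmic dynein and dynactin, 5 were called higher, 2 lower and 15 were not called (median log2 fold change 0.22), again beside 24.2% and 22.0% of all tested genes. With a common total, 2 were called higher and 4 lower, and the median was −0.04. With 1 sample left out, 3 to 7 were called higher and 0 to 1 lower. The 3 largest changes were rises in Ndel1, a dynein regulator (1.17), Dynlt3, a light chain (0.75), and Bicd2, a cargo adaptor (0.58), of which Bicd2 was not called with a common total. Nde1, which regulates dynein in mitosis, was lower, at 39.2, 35.8 and 32.2 FPKM against 25.8, 25.5 and 28.4 FPKM (log2 fold change −0.41, limma adjusted p = 0.021), a call lost without vehicle replicate 1, vehicle replicate 2 or DS-5272 replicate 2. Of 12 tested tubulins, 2 were called higher and 6 lower (median −0.47), beside 24.2% and 22.0% of all tested genes. With a common total, 1 was called higher and 6 lower, and with 1 sample left out 2 to 3 and 2 to 7. Tubb6 had the largest log2 fold change (1.68), with 11.5, 23.1 and 23.7 FPKM against 23.0, 85.7 and 117 FPKM, and was not called (limma adjusted p = 0.057), but with the replicate number as a block it was called higher (limma adjusted p = 0.0038). The abundant Tubb5 went from 708, 673 and 627 FPKM to 275, 477 and 204 FPKM, and Tuba1b and the centrosomal Tubg1 fell by 1.18 and 1.19 on the log2 scale. The calls of Tubb5 and Tuba1b were lost without vehicle replicate 1 or 2. Tuba1a rose from 14.8, 15.1 and 13.5 to 27.1, 28.5 and 32.3 FPKM (log2 fold change 0.97, limma adjusted p = 0.0019). The tubulin genes are close in sequence, and how reads shared among them were counted is not given in the sources used here.

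In the promoter windows of these lists, TTTGAA was found in 7 of 11 partners of mitotic kinesins, 1 of 12 light chains and adaptors, 1 of 18 dynein and dynactin genes and 1 of 10 tubulins, beside the 17.9% of all windows. Chromosome 18, which holds Kif20a and Kif5b, was left out of the window counts of the kinesins and of these lists.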

How the data were processed

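RNA-Seq was made from 3 vehicle and 3 DS-5272 samples. Per the paper's methods and the submitters' processing notes, the authors prepared strand-specific paired-end libraries, trimmed reads with cutadapt 1.8.1 and fastx-toolkit, checked them with FastQC and derived gene FPKM values with TopHat2 2.1.1 and Cufflinks 2.2.1 on GRCm38. The deposited FPKM values are normalized for transcript length and library size, and no counts were used. Rows that shared a symbol were summed. Kinesins were found by the symbol pattern Kif, number and letters, and each tested member was named. Of every other list, up to 3 of the largest changes past the threshold, motors outside the pattern and direct partners were named. Other genes were named after their values were seen. The members and lists were chosen with earlier results of these data known.

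Groups were compared with limma 3.58.1 in R 4.3.3 (lmFit, then two-sided eBayes tests with a variance trend), using log2(FPKM + 1) of the genes averaging 1 FPKM or more, with Benjamini-Hochberg adjustment at 0.05. Intervals are limma's 95% intervals, from an estimate of the spread that both groups share. The script was tested on simulated data. Python 3.11.15 with pandas 2.3.3, numpy 2.4.6 and matplotlib 3.10.9 was used for tables, promoter windows and plots. Relative depth was read from the value steps of genes that stayed under 0.15 FPKM, without any counting interval.

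Replicate numbers run from 1 to 3 in both groups. Deviations from the group means correlated by 0.66, 0.21 and 0.43 over 11130 genes between same-numbered samples, all over the 0.1 set as limit, and by −0.58 to 0.34 between differently numbered ones. By that limit the numbers count as pairing, although no source names a shared batch and vehicle replicate 2 correlated more with DS-5272 replicate 3 than with replicate 2. The fit without the block is reported. Alternatives were another pseudocount, other filters, 3 scalings, the block, no variance trend, the highest row per symbol, other class membership and leaving out each sample. Exons of Kif18a, Kif20a, Kif22, Kif4, Kif2a, Kif5b, Kif17, Kif1c and Kifc3 overlap other annotated genes in the GENCODE annotation, and no source states that strand was used in counting.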

Additional observations from a re-analysis of the deposited data

How the results depend on the processing

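All 11 mitotic kinesins were called lower under every alternative run, including each sample left out (limma adjusted p up to 0.049, Kif14). The exception was a mean of at least 5 FPKM, which leaves out Kif18a, with 10 of 10 called. With Kif2a and Kif24 also counted as mitotic, 12 of 13 were called lower, with a median log2 fold change of −2.04, and Kif2a was not called. Of the 25 tested kinesins, 17 kept their direction and their side of the threshold throughout. Over single genes, 338 of 366 alternative values did so, 17 lost the call, 1 gained it and 10 changed sign. With the replicate number as a block, which treats the samples as pairs, 7 kinesins were called higher and 13 lower as without it, and no kinesin call changed. Over all genes, 3367 were called higher and 2771 lower with the block, against 2697 and 2451 without it. Among the genes of the other lists, Tubb6 and the markers Cd5l, Itga2b and Col1a1 were not called in the fit without the block and were called higher with it. Scaling to a common total moved the median log2 fold change of all genes from 0.04 to −0.20, and 1773 genes were then called higher in place of 2697. Scaling to a common upper quartile moved that median to −0.08. Leaving out 1 sample gave 1654 to 2920 genes called higher and 1404 to 2446 called lower, with the lowest counts without vehicle replicate 2 and 1489 called lower without vehicle replicate 3.

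The number of cargo kinesins called lower, 1 in the report (Kif17), was 0 with no filter, with a mean of at least 5 FPKM and with each sample left out (0 to 0). The median of the cargo class was 0.045 with no filter, 0.43 with a mean of at least 5 FPKM, 0.029 with the upper quartile, −0.092 with a common total and 0.43 with Kif21b counted as cargo. For the other kinesins, the number called higher was 1 with a mean of at least 5 FPKM or the upper quartile and 1 to 3 with 1 sample left out, and the number called lower was 0 with a mean of at least 5 FPKM and 2 with a common total. Their median was 0.71 with a pseudocount of 0.1, 0.017 with no filter, 0.11 with the upper quartile, 0.39 with a common total and 0.15 to 0.62 with 1 sample left out. The fewer genes tested under the stricter limit changed these counts, and for the rest the cause was not tested.

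Signs changed in 4 genes that were not called. Kif13a was −0.092 with a common total. With 1 sample left out, Kif2a was −0.15 to 0.071, the highest without DS-5272 replicate 1, and Kif3a was −0.24 to 0.086, the highest without DS-5272 replicate 2. Kif5b was −0.13 with the upper quartile, −0.039 with the median ratio and −0.26 with a common total, and −0.075 to 0.12 with 1 sample left out. Kif2a was called lower with a common total (adjusted p = 0.045, limma). With 3 samples a group and unknown depth, changes of the size of those in Kif17 or Kif19a depend on single samples.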
